A study of Bos taurus with 6 samples.

Results

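Described here are 26 genes whose expression differed in opposite directions between pairs of granulosa cell samples from cows given folic acid with vitamin B12 or saline. They were chosen by measured values: a feature of the array had to carry a gene symbol and a log2 ratio of vitamins over saline of 1 or more on both arrays of the first slide, and of -0.7 or less on areas 1 and 2 of the second slide. The rule found 27 features for 26 genes among 21790 named features for 15216 genes, or 0.124%. With all signs turned it found 332 features (1.52%). In all, 44 features met the 4 ratios, of which 16 had no symbol and 1 belonged to a gene left out by the rule. The 4 ratios that chose the genes are given below as a description, with no test. The other arrays, areas 3 and 4 of the second slide, took no part in the choice.

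The samples were granulosa cells of dairy cows after calving, taken from preovulatory follicles of at least 12 mm, 66 ± 2 h after a second injection of prostaglandin F2 alpha. Cows of the vitamin group had received folic acid (320 mg) and vitamin B12 (10 mg) by intramuscular injection, and those of the other group 0.9% saline, from 3 weeks before calving until day 57 ± 2 after it. Cells were aspirated through the vagina on day 57 ± 3, or on day 71 ± 3 where no such follicle was present, and sorted under a stereomicroscope, which leaves room for other follicular cells. The 6 two-colour arrays each held RNA from a vitamin sample and a saline sample, as 3 biological replicates with 2 dye-swapped arrays each. Whether 1 replicate stands for a single cow or for a pool is not stated. It is therefore not known how far the spread between replicates, which the p-values measure, stands for that between cows. Part of this spread may also be technical. Replicate 1 comprised arrays 1 and 2 (the first slide), replicate 2 arrays 3 and 4, and replicate 3 arrays 5 and 6 (both on the second slide). Vitamins were in Cy5 on arrays 1, 3 and 5 and in Cy3 on arrays 2, 4 and 6.

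Granulosa cells surround the oocyte and line the follicle. Before ovulation they make estradiol under the control of FSH and LH, and after the LH surge they turn to progesterone. A two-colour array reports the ratio of 2 samples, so a high ratio can come from a high level in the first sample or a low level in the second. The level of each sample is therefore set beside the ratios for the genes described in most detail. Levels are log2 intensities that can be compared between samples for 1 feature, not between features. In bulk samples, fewer cells of a type and less RNA per cell cannot be told apart.

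Of the defining granulosa markers, FSHR and INHA were above the negative controls in 12 of 12 readings, CYP19A1 and AMH in up to 11, and FOXL2 in at most 4. Across the study, between 53.1% and 68.7% of 43794 gene features were above background in a reading. All 27 features of the described genes passed the filter on dim values (detected in at least 6 of 12 readings), 25 of them in every reading. The filter could be passed through the readings in which a gene is high.

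The saline sample of replicate 1 stood apart from the other 5 in its leukocyte and granulosa markers. The summed level of 16 of 18 macrophage and monocyte genes on the array was 5.54 to 15.4 in the vitamin samples (in units of 1000 on the intensity scale), against 121 in that saline sample and 2.93 and 9.77 in the other saline samples. The sum of 11 pan-leukocyte genes was 3.35 to 5.19 in the vitamin samples, against 55.8 in that saline sample and 1.82 and 4.06 in the other saline samples. The sum of 21 granulosa genes was 274 to 342 in the vitamin samples, against 96.8 in that saline sample and 300 and 260 in the other saline samples. The median log2 ratio of the macrophage list was -3.88, 1.92 and 0.17 in replicates 1, 2 and 3, opposite in sign to the described genes in the first 2 replicates. None of its 16 genes was above 0 in replicate 1 and below 0 in replicate 2. Epithelial markers divided the samples in another way: the sum of 11 of 16 such genes was 52.9, 62.6 and 3.27 in the vitamin samples of replicates 1, 2 and 3, and 68.4, 2.33 and 2.89 in the saline samples. By this sum, both samples of replicate 1 and the vitamin sample of replicate 2 were high. A sum follows the brightest genes of a list. The median log2 ratios of the epithelial list were 0.07, 0.31 and 0.02 in replicates 1, 2 and 3. In replicate 2, where the sums of the 2 samples differed, its genes thus did not differ as a class. A ratio compares the 2 samples of 1 replicate, so these medians cannot show whether the genes differed between replicates. The sum of 14 of 19 theca and stroma genes was 28.6, 16.9 and 6.78 in the vitamin samples and 39.4, 7.14 and 22.1 in the saline samples. The median log2 ratios of that list were 0.21, 0.52 and -0.04 in replicates 1, 2 and 3. The part of any of these cells in the results below was not tested.

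**Figure D1:**
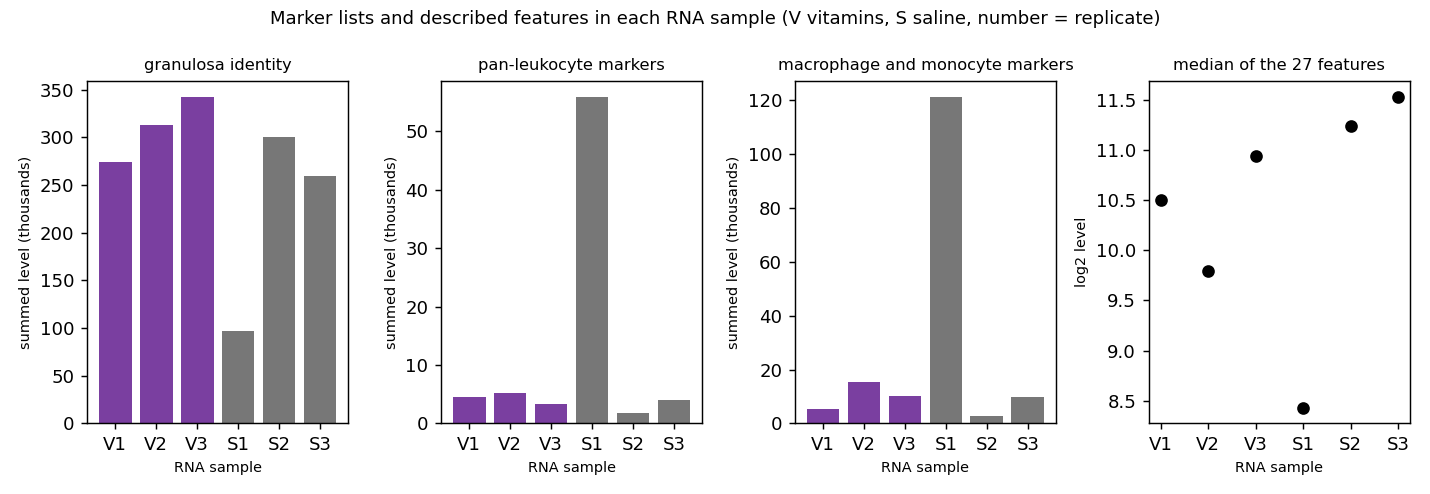
Summed level (in units of 1000 on the intensity scale) of the granulosa, pan-leukocyte and macrophage marker lists and the median log2 level of the 27 described features in the 3 vitamin samples (V1 to V3) and the 3 saline samples (S1 to S3). Sample S1 has the highest leukocyte sums (55.8 and 121), the lowest granulosa sum (96.8) and the lowest median of the described features (8.43). The rule chose the described features to be lower in S1 than in V1.

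Over the 27 features, the median log2 ratio of vitamins over saline was 2.18 in replicate 1 (1.39 to 6.04), -1.30 in replicate 2 (-2.64 to -0.60) and -0.25 in replicate 3 (-2.14 to 1.18). The medians of all tested features were 0.01, -0.01 and 0.00. Only the value of replicate 3 is independent of the choice. The SD of the 3 replicate ratios had a median of 1.87 for the described features and of 0.34 for all. The rule itself makes the first large, and the 2 sets were not matched for brightness. In limma's test of the 3 replicate ratios against 0, with adjustment over 26713 tested features, 0 features passed (0%), and 1245 had an unadjusted p below 0.05. Of the 27, 0 passed and 0 had an unadjusted p below 0.05, which says nothing about them, since the rule set opposite signs and large ratios in 2 of the 3 replicates. Without replicate 1, which holds the saline sample that stood apart, limma also called 0 features, and 1712 had an unadjusted p below 0.05. In every one of the 27 the levels of the 3 vitamin samples overlapped those of the 3 saline samples, which the rule itself fixes.

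**Figure D2:**
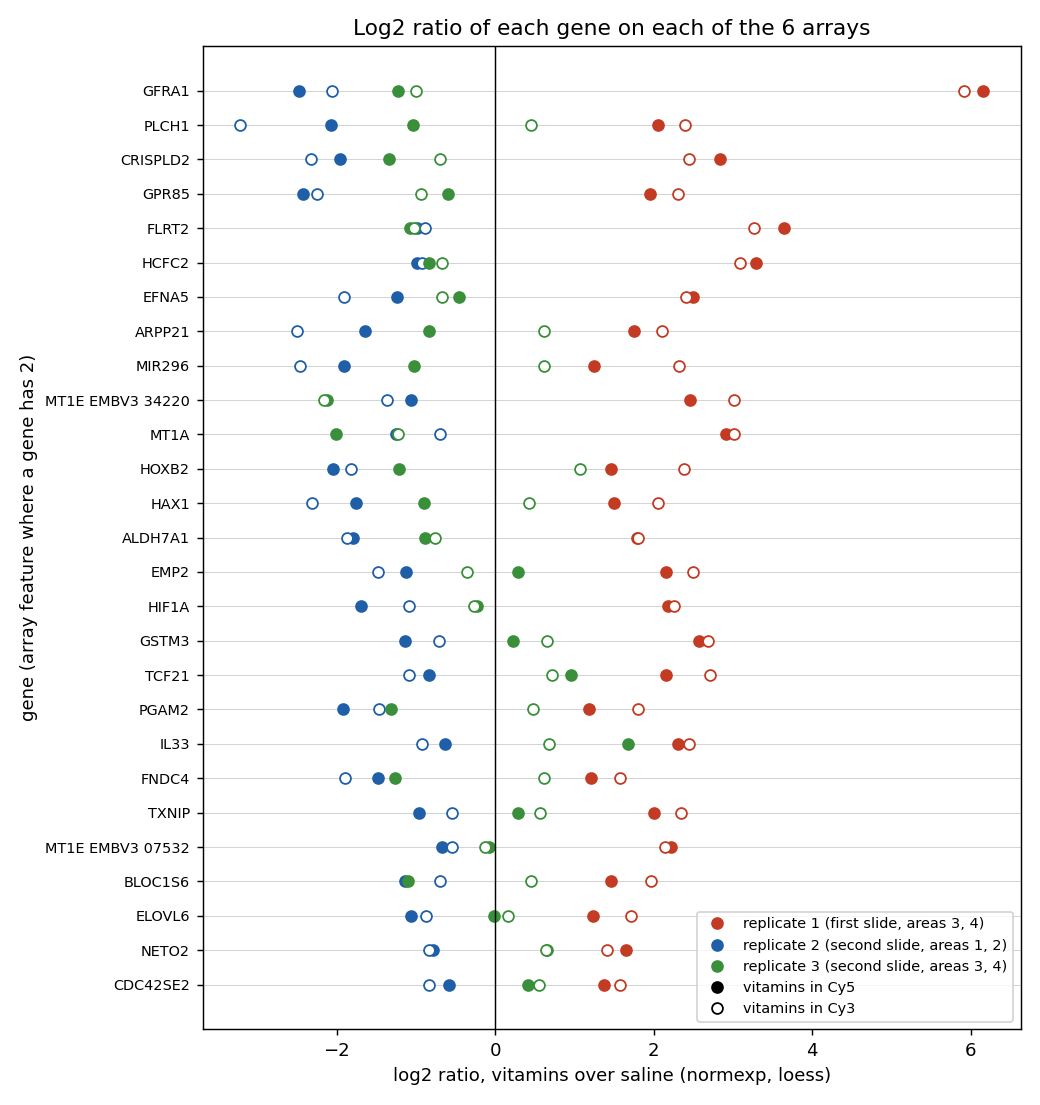
Log2 ratio of vitamins over saline (x axis, normexp background correction and loess) for each described gene (y axis) on each of the 6 arrays. Colours mark replicates, filled points arrays with vitamins in Cy5 and open points arrays with vitamins in Cy3. Replicates 1 and 2 lie on opposite sides of 0, as the rule requires, and replicate 3 lies on either side.

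By level, the vitamin sample of replicate 1 was the highest of the 6 for 12 of 27 features (44.4%), where this held for 20.8% of tested features. The saline sample of replicate 1 was the lowest for 22 (81.5%), against 21.9% of tested features. The saline sample of replicate 3 was the highest for 9 features, that of replicate 2 for 5 and the vitamin sample of replicate 3 for 1. The vitamin sample of replicate 2 was the lowest for 4 and the saline sample of replicate 3 for 1. The order within replicates 1 and 2 is set by the rule, under which vitamin replicate 1 and saline replicate 2 cannot be the lowest. The shares of tested features are under no such limit and are no fair baseline for these counts. Median levels were 10.5, 9.79 and 10.94 in the vitamin samples of replicates 1, 2 and 3, and 8.43, 11.24 and 11.53 in the saline samples. Over all tested features the medians were 8.1 to 8.18, so the described features were the brighter set. Both samples of replicate 1 shared the first slide, so slide and sample cannot be told apart between it and the others.

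**Figure D3:**
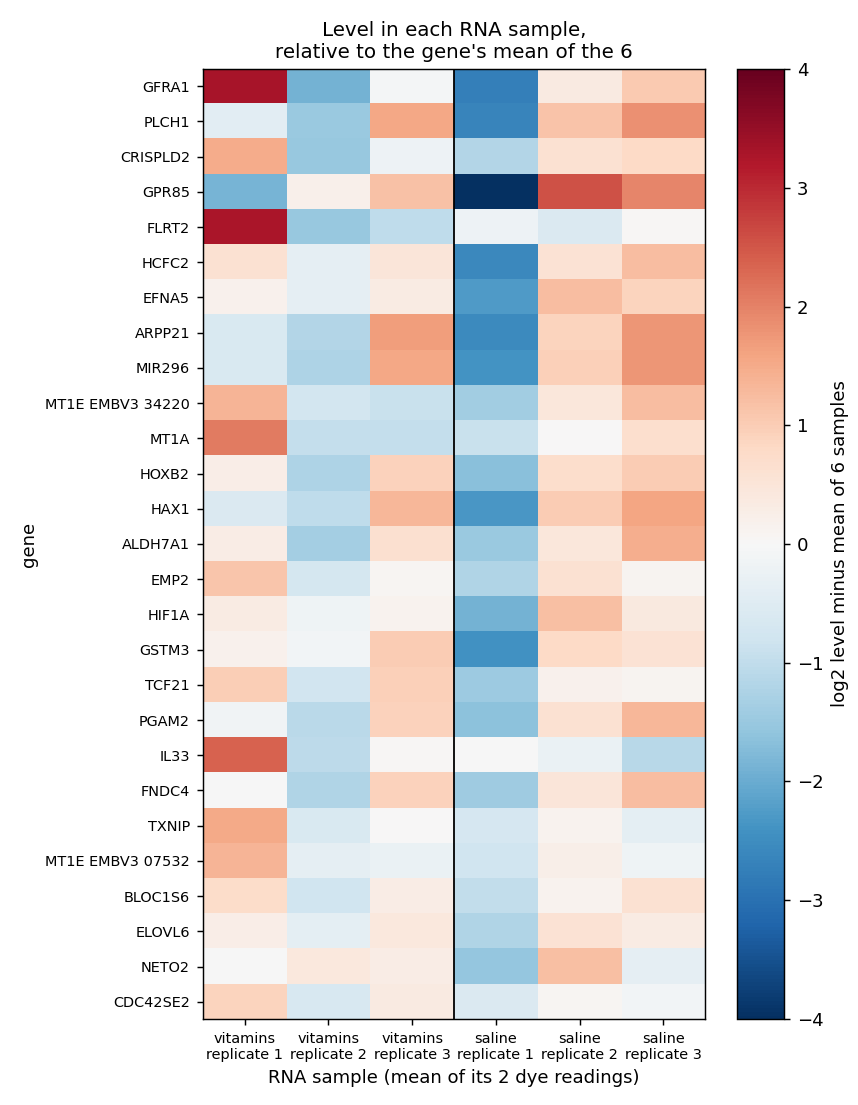
Log2 level of each described gene in each RNA sample relative to its mean over the 6 samples; columns are the 3 vitamin and then the 3 saline samples, rows are genes. The column of saline replicate 1 is the lowest of its row in 22 of 27 rows, and that of vitamin replicate 1 the highest in 12. The rule placed the first of these below the second in every row.

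Receptors, ligands and other membrane proteins included the gene of widest spread. GFRA1, the membrane-anchored co-receptor that presents the growth factor GDNF to the kinase RET, had log2 ratios of 6.16 and 5.91 on arrays 1 and 2, -2.48 and -2.06 on arrays 3 and 4, and -1.22 and -1.0 on arrays 5 and 6. Its raw intensities on the first slide were 26409 and 36518 in the vitamin readings and 482 and 653 in the saline readings. Its levels were 15.09, 9.90 and 11.73 in the vitamin samples and 9.06, 12.17 and 12.84 in the saline samples. The vitamin sample of replicate 1 was thus 2.25 above the next, and the other 2 replicates were lower with vitamins. The mean ratio was 0.89 ± 4.50 (SD, n = 3). The features of GDNF, RET and NRTN were not above background often enough to be tested, and that of the related co-receptor GFRA2 had ratios of 0.32, 0.08 and -0.33 in replicates 1 to 3.

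FLRT2, a leucine-rich repeat protein of the cell surface that binds UNC5 guidance receptors, had ratios of 3.64 and 3.26 on arrays 1 and 2, -0.99 and -0.88 on arrays 3 and 4, and -1.08 and -1.03 on arrays 5 and 6. Its level was 14.88 in the vitamin sample of replicate 1, 3.2 above the next of the 6 samples, and 10.10 and 10.62 in the other vitamin samples. The saline samples had 11.42, 11.03 and 11.68 and differed little among themselves. For this gene the vitamin sample of replicate 1 alone stood out, and that of saline replicate 1 was not low. The related FLRT3 had ratios of 0.71, -0.18 and -0.21 in replicates 1 to 3.

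EFNA5, an ephrin ligand of Eph receptors, had ratios of 2.5 and 2.41 on arrays 1 and 2, -1.24 and -1.91 on arrays 3 and 4, and -0.46 and -0.67 on arrays 5 and 6. Its levels were 13.86, 13.33 and 14.00 in the vitamin samples and 11.40, 14.90 and 14.56 in the saline samples, so the low value of saline replicate 1 lay 1.93 below the next. GPR85, an orphan G protein-coupled receptor best known from brain, had ratios of 1.96 and 2.31, -2.43 and -2.25, and -0.59 and -0.94 on the same pairs of arrays. Both of its samples on the first slide were low: its levels were 9.32, 11.39 and 12.36 in the vitamin samples and 7.18, 13.73 and 13.13 in the saline samples. Vitamin readings were above background in 6 of 6 cases and saline readings in 4 of 6. The raw saline intensities were 196 and 151 on arrays 1 and 2 and 8496 to 14197 on the others. The ratios of replicate 1 were thus taken against readings not above background.

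NETO2, an auxiliary subunit of kainate-type glutamate receptors, had ratios of 1.65 and 1.41 on arrays 1 and 2, -0.78 and -0.84 on arrays 3 and 4, and 0.65 and 0.64 on arrays 5 and 6. It was among the genes above 0 in replicate 3, and its mean was 0.46 ± 1.18 (SD, n = 3). EMP2, a membrane protein with 4 passes through the membrane, had ratios of 2.15 and 2.5, -1.12 and -1.48, and 0.29 and -0.36. Its 2 values in replicate 3 fell on either side of 0.

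Among secreted proteins, CRISPLD2, which in humans binds bacterial lipopolysaccharide, had ratios of 2.84 and 2.45 on arrays 1 and 2, -1.96 and -2.32 on arrays 3 and 4, and -1.34 and -0.70 on arrays 5 and 6. Its levels were 13.86, 10.84 and 12.16 in the vitamin samples and 11.21, 12.98 and 13.18 in the saline samples. The vitamin sample of replicate 2 was the lowest here and that of replicate 1 the highest. A second feature of CRISPLD2, detected in 10 readings, had ratios of 3.39, -0.65 and -1.02 in replicates 1 to 3, the same signs as the first.

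IL33, an alarm cytokine of the IL-1 family that is stored in the nucleus, had ratios of 2.31 and 2.45 on arrays 1 and 2, -0.63 and -0.92 on arrays 3 and 4, and 1.67 and 0.68 on arrays 5 and 6. It had the highest mean ratio in replicate 3 of the 27 features, 1.18, and was lower with vitamins in replicate 2 only. Its levels were 11.54, 8.13 and 9.23 in the vitamin samples and 9.16, 8.91 and 8.05 in the saline samples. Its other features were detected in at most 4 readings. IL1A and IL18, cytokines of the same family that are made by macrophages among other cells, had ratios of -2.95, 0.68 and 0.03 and of -1.36, 2.69 and 0.16 in replicates 1 to 3, with signs opposite to IL33 in the first 2 replicates. The receptor of IL33, IL1RL1, had ratios of 0.17, 0.08 and -0.13.

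FNDC4, a protein with a fibronectin type III domain, had ratios of 1.21 and 1.57 on arrays 1 and 2, -1.48 and -1.89 on arrays 3 and 4, and -1.26 and 0.62 on arrays 5 and 6. Its values in replicate 3 thus had opposite signs in the 2 dye orientations.

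**Figure D4:**
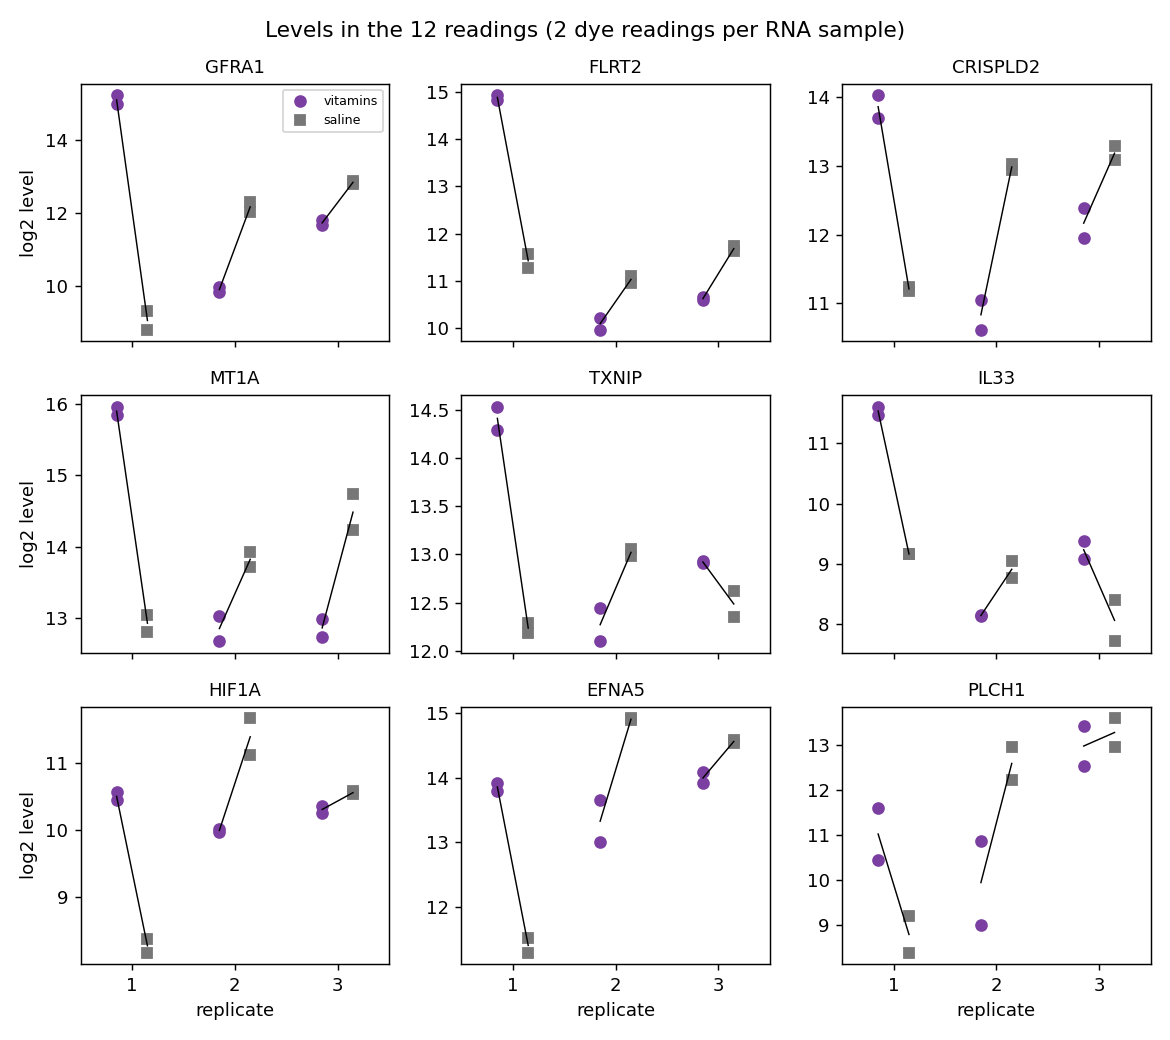
Log2 level of 9 of the genes in the 12 readings; x axis, replicate; circles, vitamin readings; squares, saline readings; lines join the means of the 2 dye readings. For GFRA1, FLRT2, MT1A, TXNIP and IL33 the vitamin sample of replicate 1 is more than 1 above every other sample, while HIF1A and EFNA5 have their lowest value in saline replicate 1.

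The metallothioneins, small cysteine-rich proteins that bind zinc and copper and are induced by these metals and by glucocorticoids, were represented by 3 of the features. MT1A had ratios of 2.91 and 3.02 on arrays 1 and 2, -1.25 and -0.69 on arrays 3 and 4, and -2.01 and -1.23 on arrays 5 and 6. Its levels were 15.90, 12.86 and 12.87 in the vitamin samples and 12.93, 13.82 and 14.49 in the saline samples. The first of these lay 1.41 above any other sample, and the other vitamin samples were the lowest of the 6.

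The brighter of 2 features of MT1E had ratios of 2.46 and 3.02 on arrays 1 and 2, -1.06 and -1.36 on arrays 3 and 4, and -2.12 and -2.16 on arrays 5 and 6, the lowest mean in replicate 3 of the 27 features (-2.14). The dimmer had 2.22 and 2.14, -0.67 and -0.54, and -0.08 and -0.13. The 2 features had the same signs in replicates 1 and 2, where the rule chose them, while in replicate 3 the brighter lay far below 0 and the dimmer near it. MT2A, which did not meet the rule, had ratios of 2.70, -0.29 and -1.47 in replicates 1 to 3, and MT3 of 0.36, -0.02 and 0.02. Metallothionein transcripts are much alike, and cross-hybridisation between them was not tested.

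Genes of zinc handling were chosen by role after the metallothioneins were known. MTF1, the zinc-sensing factor that drives metallothionein genes, had ratios of -0.01, -0.13 and 0.13 in replicates 1 to 3. The zinc exporter SLC30A1 had ratios of 0.45, -0.88 and -0.20. The importer SLC39A8 had 1.17, -0.96 and -0.48, and the importer SLC39A14 had 0.38, -1.18 and 0.60. The 3 transporters had the signs of the metallothioneins in replicates 1 and 2, as had 24.5% of all 10946 named genes tested, and MTF1 stayed near 0. In replicate 3, SLC39A14 was above 0, where MT1A was below it. SLC30A1 and SLC39A14 have 3 features each on the array, and only the brightest tested one is given.

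Among regulators of transcription, HIF1A, the oxygen-regulated subunit of the hypoxia factor, had ratios of 2.18 and 2.26 on arrays 1 and 2, -1.69 and -1.09 on arrays 3 and 4, and -0.23 and -0.27 on arrays 5 and 6. Its levels were 10.50, 9.99 and 10.31 in the vitamin samples and 8.28, 11.38 and 10.56 in the saline samples. Saline replicate 1 was the lowest by 1.71 and saline replicate 2 the highest. Its other 2 features, both detected in 12 readings, had ratios of 0.81, -0.74 and 0.05, and of 1.04, -1.28 and 0.22, in replicates 1 to 3.

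HIF1A was the gene that also belonged to a list drawn up for context, that of the response to the LH surge. Of 25 measured genes of that list, 5 were above 0 in replicate 1 and below 0 in replicate 2, and its medians were 0.04, 0.44 and 0.09. Of 22 measured genes of hypoxia and glycolysis, 5 had that pattern, and the medians were -0.22, -0.13 and 0.00. In each list 0 genes passed limma's test in either direction. Over all 10946 named genes tested, 24.5% had that pattern. The partner subunit ARNT had ratios of -0.04, -0.13 and -0.30, and the hydroxylase EGLN3, itself a target of hypoxia factors, of -2.71, 0.31 and -0.29.

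TCF21, a bHLH factor of mesenchymal cells that takes part in gonad development in mice, had ratios of 2.16 and 2.71 on arrays 1 and 2, -0.83 and -1.09 on arrays 3 and 4, and 0.96 and 0.72 on arrays 5 and 6. It was higher with vitamins in replicates 1 and 3 and had a mean of 0.77 ± 1.70 (SD, n = 3). HCFC2, a relative of the host cell factor of transcription complexes, had ratios of 3.29 and 3.09, -0.99 and -0.92, and -0.83 and -0.67. Its saline sample of replicate 1, at 7.89, lay 2.21 below the next. Its other 2 features, detected in 12 and 11 readings, stayed near 0 in replicates 1 and 2: their ratios were 0.03, -0.19 and -0.25, and -0.21, -0.02 and 0.43, in replicates 1 to 3. HOXB2, a homeobox factor, had ratios of 1.46 and 2.38, -2.05 and -1.82, and -1.21 and 1.07.

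Redox and metabolic enzymes formed another part of the set. TXNIP, which binds thioredoxin and restrains glucose uptake, had ratios of 2.00 and 2.35 on arrays 1 and 2, -0.96 and -0.55 on arrays 3 and 4, and 0.29 and 0.57 on arrays 5 and 6. Its levels were 14.41, 12.27 and 12.92 in the vitamin samples and 12.23, 13.02 and 12.49 in the saline samples, so that vitamin replicate 1 lay 1.39 above the next. A second feature, detected in 12 readings, had ratios of 1.54, -0.42 and -0.29. Thioredoxin (TXN) itself had 0.35, -0.23 and -0.26.

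GSTM3, a glutathione transferase of the mu class, had ratios of 2.57 and 2.68 on arrays 1 and 2, -1.14 and -0.71 on arrays 3 and 4, and 0.23 and 0.65 on arrays 5 and 6. Its level in saline replicate 1, 11.27, lay 2.31 below every other sample. GSTM1, of the same class, had ratios of 1.19 and -0.97 in replicates 1 and 2, the same signs as GSTM3, while in replicate 3 its 2 arrays had opposite signs (-0.50 and 0.77). Members of this class are alike in sequence, and cross-hybridisation between them was not tested.

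ELOVL6, an elongase of long-chain fatty acids, had ratios of 1.24 and 1.71 on arrays 1 and 2, -1.06 and -0.87 on arrays 3 and 4, and -0.01 and 0.16 on arrays 5 and 6. A second feature, detected in 10 readings, had 0.70, -0.92 and -0.63, and another, detected in 6, stayed near 0 with -0.03, -0.13 and 0.20. The desaturase SCD, which acts on fatty acids next to this elongase, had ratios of 0.87, -0.87 and -0.26 in replicates 1 to 3, and the fatty acid synthase FASN had 0.09, 0.31 and -0.42. The elongase ELOVL5 had -0.61, 0.92 and -0.24, with signs opposite to ELOVL6 in replicates 1 and 2, and ELOVL1 had 0.20, 0.19 and -0.01.

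ALDH7A1, an aldehyde dehydrogenase of lysine breakdown, had ratios of 1.79 and 1.80 on arrays 1 and 2, -1.79 and -1.87 on arrays 3 and 4, and -0.88 and -0.76 on arrays 5 and 6. Its other features disagreed with each other: 1 had ratios of 0.62, -0.49 and -0.19 in replicates 1 to 3, and the other -0.81, 0.73 and -0.20. PGAM2, the phosphoglycerate mutase of muscle, had ratios of 1.19 and 1.80, -1.92 and -1.46, and -1.31 and 0.48. The mutase of most other tissues, PGAM1, had -0.79, -1.31 and -0.26 in replicates 1 to 3, with the opposite sign to PGAM2 in replicate 1 and the same sign in the other 2.

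Of the signalling and trafficking proteins, PLCH1, a phospholipase C, had ratios of 2.05 and 2.40 on arrays 1 and 2, -2.07 and -3.22 on arrays 3 and 4, and -1.04 and 0.45 on arrays 5 and 6. Its levels were 11.02, 9.95 and 12.98 in the vitamin samples and 8.80, 12.59 and 13.27 in the saline samples. Both samples of replicate 3 were high and those of replicate 1 were not, unlike GFRA1 or FLRT2. ARPP21, a phosphoprotein regulated by cyclic AMP in the brain, had ratios of 1.75 and 2.10, -1.64 and -2.50, and -0.83 and 0.62.

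HAX1, a mitochondrial protein that protects from cell death, had ratios of 1.5 and 2.05 on arrays 1 and 2, -1.76 and -2.31 on arrays 3 and 4, and -0.90 and 0.43 on arrays 5 and 6. Its other 2 features, each detected in 9 readings, stayed near 0: 0.22, 0.30 and 0.01, and 0.04, 0.30 and 0.17. BLOC1S6 (named PLDN on the array), a subunit of a complex that builds lysosome-related organelles, had ratios of 1.46 and 1.97, -1.14 and -0.70, and -1.10 and 0.45. Of 4 measured subunits of the same complex, BLOC1S2 had -1.24, 0.25 and 0.35 in replicates 1 to 3, DTNBP1 -1.51, 0.55 and 0.40, BLOC1S1 -0.17, 1.39 and 0.02, and SNAPIN -0.37, -0.23 and -0.19. The first 3 had signs opposite to it in replicates 1 and 2, and SNAPIN in replicate 1. CDC42SE2, a small effector of the GTPase CDC42, had ratios of 1.37 and 1.58, -0.58 and -0.83, and 0.42 and 0.55. Its vitamin readings were above background in 5 of 6 cases. Of its other features, the best match had 2.66, -0.31 and -0.22 in replicates 1 to 3, and another, also detected in 12 readings, had 1.23, 0.21 and 0.38.

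The feature annotated MIR296, a microRNA gene, had ratios of 1.25 and 2.32 on arrays 1 and 2, -1.91 and -2.46 on arrays 3 and 4, and -1.03 and 0.62 on arrays 5 and 6. Which transcript it detects was not analysed here, and no level of a mature microRNA is drawn from it.

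Replicate 3, whose arrays did not choose the genes, showed no common direction. Of the 27 features, 11 were below 0 on both arrays (40.7%, against 28.6% of 26605 features tested and measured on every array), 6 were above 0 on both (22.2%, against 30.5%) and 10 had opposite signs (37%, against 40.8%). At -0.58 or less on both arrays, a change of about 1.5-fold, were 8 features (29.6%), where 3.42% of tested features were. They were ALDH7A1, CRISPLD2, FLRT2, GFRA1, GPR85, HCFC2, MT1A and the brighter feature of MT1E. At 0.58 or more on both were 3 (11.1%, against 3.41%), namely IL33, NETO2 and TCF21. The tested features were dimmer, with median levels of 8.1 to 8.18 against 8.43 to 11.53, and were not matched for this. This is 1 biological replicate, so these shares have no test. They also depend on centring: on the ratio used by the rule, which is centred without loess, 2 features passed on the low side and 3 on the high side, and 4 and 5 where median centring replaced loess. The counts over all 26605 features moved too: 910 were on the low side and 908 on the high side with loess, 360 and 1324 on the ratio of the rule, and 508 and 1986 with median centring.

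Ratios of opposite sign at least 1 apart on arrays 5 and 6 were found for 8 of the 27 features (29.6%), against 4.75% of tested features (not matched for brightness). They were ARPP21, BLOC1S6, FNDC4, HAX1, HOXB2, MIR296, PGAM2 and PLCH1, and all 8 ran the same way. On array 5, with vitamins in Cy5, they lay between -1.31 and -0.83, and on array 6, with vitamins in Cy3, between 0.43 and 1.07. In replicate 3 each dye orientation is 1 array, so dye and array cannot be told apart. In replicate 1 these features also had the higher ratio with vitamins in Cy3. In replicate 2 they differed: on arrays 3 and 4, ARPP21 had -1.64 and -2.50 and HOXB2 had -2.05 and -1.82. The mean ratios of the 8 in replicate 3 lay between -0.42 and -0.07. Saline replicate 3 had the highest level in 7 of the 8 and saline replicate 1 the lowest in all 8. The correlation of level profiles between pairs of these 8, over 6 samples that share arrays and scaling, had a median of 0.98 (lowest 0.74). Between pairs of the other 19 features it was 0.71 (lowest -0.47). All 6 arrays had a part in choosing the 8, so their higher correlation was largely fixed by the choice and shows no common profile by itself. Other features of these 8 genes numbered 5, of which 3 were detected in at least 6 readings. Among the 5, 0 were above 0 in replicate 1 and below 0 in replicate 2. The same 8 were of opposite sign and 1 apart with median centring, with no background correction and in the authors' deposited table. On the ratio of the rule, 2 of them were, FNDC4 and HOXB2. By that ratio, 5 of the 27 features met these conditions (18.5%, against 13.2% of tested features). The others among the 5 were EFNA5, EMP2 and GPR85, which lay above 0 on array 5 and below 0 on array 6. Without these 8 the median ratio of the other 19 features in replicate 3 was -0.25, the same as with them. The 8 were noticed after the values were seen.

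**Figure D5:**
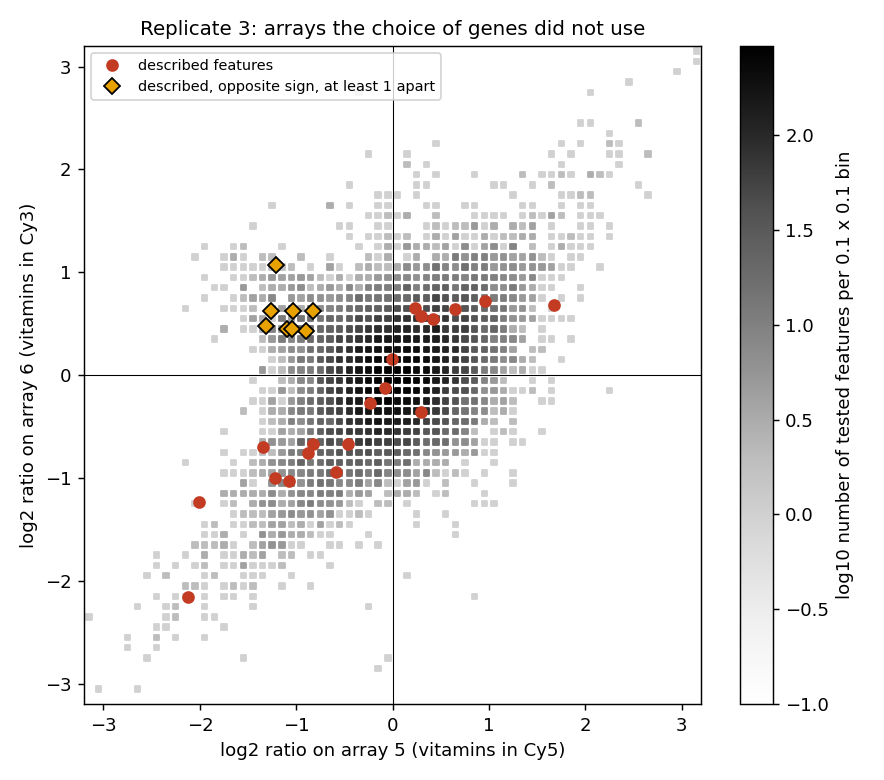
Log2 ratio on array 5 (x axis, vitamins in Cy5) against array 6 (y axis, vitamins in Cy3) for all tested features (grey bins, darker for more features) and the 27 described features (points). Diamonds mark the 8 with opposite signs at least 1 apart; they lie together at the upper left, between -1.31 and -0.83 on array 5 and between 0.43 and 1.07 on array 6.

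Where the array held other features for the described genes, these followed only in part. There were 25 such features for 12 genes, of which 18 were detected in at least 6 readings. Of the 18, 10 were above 0 in replicate 1 and below 0 in replicate 2, 2 had the opposite signs and 6 another pattern. Over all 10946 named genes tested, at 1 feature per gene, 24.5% had the first pattern. The 10 were counted by sign alone. Those of HCFC2 (0.03 and -0.19 in replicates 1 and 2) and 1 of TXNIP (0.30 and -0.04) lay near 0 in at least 1 replicate. They share RNA and arrays with the features described and are no replicates. The 10 belonged to ALDH7A1, CDC42SE2, CRISPLD2, ELOVL6, HCFC2, HIF1A, NETO2 and TXNIP. The other 8 belonged to ALDH7A1, BLOC1S6, CDC42SE2, ELOVL6, HAX1, HCFC2 and NETO2.

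The thresholds fell within a continuous range of values. On the ratio of the rule, the features just inside the limit on the first slide were PGAM2 (1.02 and 1.09 on arrays 1 and 2) and FNDC4 (1.27 and 1.02). Just outside lay ISM1 (1.58 and 0.93) and NPR3 (1.15 and 0.93). Just inside the limit on the second slide were IL33 (-0.70 and -1.15 on arrays 3 and 4) and the dimmer feature of MT1E (-0.74 and -0.71). Just outside were OLFML2B (-0.63 and -1.01) and KCTD8 (-0.62 and -1.74).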

How the data were processed

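Two-colour arrays of granulosa cell RNA, amplified in 2 rounds per the labels' protocols, were read from the deposited scanner files. Per the file headers these hold an intensity for every spot and its local background, of which the median over pixels was used. A log2 ratio table that the authors deposited served as an alternative; its columns had r of 0.815 to 0.95 with the scanner ratios and medians of -0.0179 to 0.0149, so they run as vitamins over saline, and its normalization is unknown. In R 4.3.3 with limma 3.58.1, intensities were corrected with normexp (offset 50) and loess with control and ignored spots (2 to 71 per array) at weight 0. Ratios were turned to vitamins over saline and averaged over each dye-swap pair. The labels do not name the pairs: of all ways to pair arrays of opposite dyes, the one whose correlations had the largest sum was taken (2.26, next 0.699). A feature was tested when above the mean plus 2 SD of 153 negative-control spots in at least 6 of 12 readings. For each feature, lmFit and eBayes tested the mean of 3 ratios against 0, adjusted by Benjamini-Hochberg at 0.05 over all tested features; the steps were tested on simulated data. Levels come from loess and Aquantile scaling, averaged over both dyes. Precision is limited by the small number of arrays.

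The genes were chosen on another ratio: median intensity minus background, floored at 50, in log2, centred to median 0 over gene features. For 6017 bright features this ratio differed from the loess ratio by a median of -0.21, -0.88, 0.12, -0.82, 0.76 and -0.14 on arrays 1 to 6. Symbols come from the platform annotation, which named 21790 features, none with several symbols; 1524 were updated through RefSeq (ARS-UCD2.0). MT1E keeps the older symbol. The genes, lists and partner genes were chosen with earlier results of these data known. By rule, values on every array were given for the 12 genes of widest difference between replicates 1 and 2, the 4 highest and lowest in replicate 3, any gene in a fixed list and those at the thresholds; the remaining genes are given as well. Motifs in promoters were not searched and no sequences are printed.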

Additional observations from a re-analysis of the deposited data

How the results depend on the processing

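Under every setting tried, limma called 0 features: median centring in place of loess, a floor of 50 or no background correction, the authors' deposited ratios, no filter or detection in all 12 readings, a trend on intensity, the second best pairing, the slide as a block, and leaving out each replicate in turn (0 to 0 calls). Unadjusted p-values below 0.05 numbered 654 to 3317 features across these settings. Every ratio already pairs a vitamin sample with a saline sample on 1 array, so the test itself is paired; no further replicate block could be fitted to 1 ratio per replicate.

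Membership depended on the ratio and the thresholds. With normexp and loess ratios in the rule, 53 features were found (21 shared), of which 13 were above 0 and 23 below 0 on both arrays of replicate 3. With the authors' deposited ratios, 75 were found (23 shared), with 15 above and 32 below. With thresholds of 1.5 and -1, 8 were found, with 0 above and 6 below. With 0.7 and -0.5, 59 were found, with 13 above and 23 below. With mean pixel intensities, chosen after seeing the data, 23 were found (20 shared). The cause was not tested, though looser thresholds must find more. A lower and a higher floor in the ratio of the rule found 27 and 26. The median in replicate 3 lay between -0.89 and 0.00 across all these settings. All 27 features stayed above 0 in replicate 1 and below 0 in replicate 2 with each of 4 other normalizations. This was nearly fixed by the rule, which chose them for large ratios on the same scans. In replicate 3, 20 of 27 kept their sign with median centring and 27 with the other 3.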

Other observations

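The turned rule found more features than the rule itself on either ratio: 332 against 27 on the ratio of the rule, and 292 against 53 on loess ratios. On the arrays of replicate 3, 319 tested features of the turned set had a median log2 ratio of -0.01, where the 27 described features had -0.25. Of 10946 named genes tested, 2677 were above 0 in replicate 1 and below 0 in replicate 2. Of 44 measured partner genes, chosen for their roles beside the described genes, 16 had that pattern and 8 the opposite signs.

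Granulosa lists differed in how they compared with the described genes. The median log2 ratios of 21 granulosa identity genes were 0.74, -0.11 and 0.19 in replicates 1, 2 and 3, and those of 22 genes of the estrogen-active follicle 0.79, -0.11 and 0.24. In both lists, whose medians in replicate 2 were near 0, 10 genes were above 0 in replicate 1 and below 0 in replicate 2, and 0 genes of either list passed limma's test. The 23 genes of granulosa matrix and basal lamina had medians of 0.81, 0.61 and 0.30, with 2 genes of that pattern, and 18 genes of steroid synthesis had 0.37, 0.13 and 0.10, with 4.

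Of 25 described genes found in the RefSeq gene table, 0 pairs lay within 10 genes of each other. MT1E was not found there, so its distance to the other metallothionein, MT1A, could not be scored.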
